A study of Homo sapiens with 2 samples.

Results

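FGF17 (gene ID 8822), FGF4 (2249), FGFR2 (2263), FGFR4 (2264) and DUSP4 (1846) are 5 genes of fibroblast growth factor (FGF) signalling, and they were taken by symbol from the 2005 genes of the authors' deposited table. They were picked because their levels differed between the study's 2 libraries, so those levels and ratios are given as a description, with no test. The scramble library came from the human embryonic stem cell line HES2 after infection with a lentivirus labelled scramble. The knockdown library came from HES2 cells infected with a lentivirus carrying a short hairpin RNA (shRNA) against TFCP2L1, a transcription factor. Both cultures were grown for 3 passages in basal medium with 10% KSR, FGF2 at 10 ng/ml and Activin A at 10 ng/ml, so both received FGF2. There was 1 library per group from 1 cell line, which gives no replicate check on any value below, and effects of the shRNA and of chance variation from culture to culture cannot be told apart. The labels do not say whether infected cells were selected.

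FGF ligands are secreted proteins that bind receptor tyrosine kinases (FGFR1 to FGFR4) together with heparan sulfate, and the receptors switch on the RAS, RAF, MEK and ERK kinases. Active ERK induces its own brakes, among them dual-specificity phosphatases (DUSPs), which remove the activating phosphates from MAP kinases, and the Sprouty and Spred proteins. Human embryonic stem cells are kept undifferentiated with FGF2, and in the embryo FGF4, FGF8 and FGF17 are made in and around the primitive streak, where mesoderm and endoderm form.

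Levels are in FPKM (reads scaled by gene length and library size), which allows genes of unequal length to be compared within a library. The libraries held about 23480000 reads (scramble) and 22710000 reads (knockdown), as inferred from the deposited values. Ratios divide knockdown by scramble reads after scaling for depth. Each has an exact 95% interval (Clopper-Pearson) of the error from counting alone, and the sources name no molecular identifiers that would mark copies of 1 molecule. Only genes past the authors' limits are in the table, 5.86% (higher) and 4.98% (lower) of the 18489 genes inferred to have been tested, and nothing is said about the level of a gene without a row. TFCP2L1 itself had 3.19 FPKM with scramble and 0.33 FPKM with the shRNA, 9.70-fold lower (interval 7.56 to 12.6). Of the 5 genes 3 were higher and 2 lower, and all 5 passed a limit of 2-fold and 1 FPKM in at least 1 library, as did 40.8% (higher) and 35.4% (lower) of all listed genes; the choice of the 5 used these values, so nothing is read from that count. In bulk RNA, fewer cells that express a gene and less of its RNA per cell cannot be told apart.

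FGF17, a ligand of the FGF8 subfamily, was at a low level in the scramble library and among the most abundant listed transcripts in the knockdown library. Its level was 0.45 FPKM in scramble cells and 323 FPKM in the knockdown library. Reads for both libraries were estimated from these levels, at 14 scramble reads and 9730 knockdown reads, a ratio of 719 (interval 428 to 1315). With a pseudocount of 0.1 FPKM its log2 ratio was 9.20, the highest of all 2005 listed genes. That rank depends on the pseudocount. Without it FGF17 had 9.49, below FOXA2 (10.14, on 3 scramble reads as estimated from its level) and SOX17 (11.38, at the floor in the scramble library). By level it was 1544th of the listed genes in the scramble library and 8th in the knockdown library. None of the 31-base words of its longest coding transcript occurs in another gene.

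FGF4, a ligand best known from the inner cell mass and the primitive streak, was also higher in the knockdown library, from a low level. It had 1.56 FPKM (42 reads) in the scramble library and 24.4 FPKM (639 reads) in the knockdown library. The ratio was 15.7 (interval 11.5 to 22.0) and the log2 ratio 3.88, the 65th highest in the table. In the scramble library FGF4 was the more abundant of the pair per length, and in the knockdown library FGF17 was 13.3 times as abundant.

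**Figure D1:**
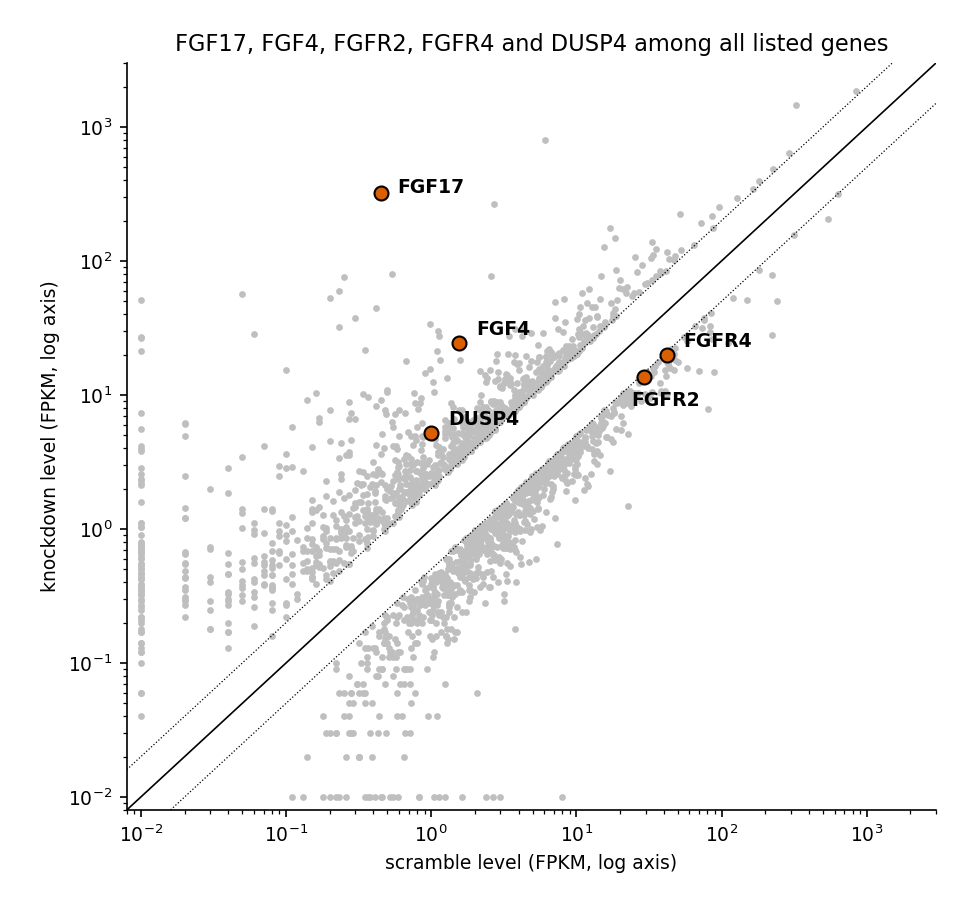
Each grey point is 1 of the 2005 listed genes, with its level in the scramble library (x axis) and in the knockdown library (y axis), both in FPKM on log axes, and the solid and dotted lines mark equal levels and 2-fold differences. FGF17 (0.45 and 323 FPKM), FGF4 (1.56 and 24.4 FPKM) and DUSP4 (1.00 and 5.16 FPKM) lie above the upper dotted line, and FGFR2 and FGFR4 lie together just under the lower one; the empty band shows that the table lists no gene within 2-fold.

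Of 22 FGF ligand genes looked up, 6 had a row, and 5 were higher and 1 lower in the knockdown library. Their log2 ratios had a median of 2.27. FGF17 and FGF4, picked for their levels, are among the 6, so nothing is read from that median. Over all listed genes, of which 54.1% were higher, the median was 1.01, near the edge of the 2-fold band where no gene is listed. FGF8, the closest relative of FGF17 among them and a regulator of cell migration from the streak, had 4.88 and 29.1 FPKM (105 and 606 reads), a ratio of 5.97 (interval 4.85 to 7.42). FGF19, an endocrine ligand that signals mainly through FGFR4, had 5.55 and 19.2 FPKM, a ratio of 3.47 (interval 3.03 to 3.99). FGF1, a ligand of all FGF receptors, had 0.41 and 1.93 FPKM, a ratio of 5.14 by reads (interval 3.58 to 7.58) and 4.71 by level. Its reads were found only when levels were allowed to be off by up to 12%. FGF4, FGF8, FGF19 and FGF1 were the 4 higher ligands other than FGF17. Their levels ranged from 0.41 to 5.55 FPKM in scramble cells and from 1.93 to 29.1 FPKM in the knockdown library.

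FGF21, an endocrine ligand induced in metabolic stress, went the other way. It had 0.71 FPKM on 21 scramble reads and 0.03 FPKM on 1 knockdown read, a ratio of 0.0493 with a wide interval (0.00119 to 0.306). The other 16 ligand genes, FGF2 and the FGF8 relative FGF18 among them, were without a row.

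The ligand that led the listed ligand RNA differed between the libraries. Summed over the 6 listed ligands, the level was 13.6 FPKM in scramble cells and 397.9 FPKM in the knockdown library, 29.3-fold higher. FGF17 made up 3.32% of the scramble sum and 81.2% of the knockdown sum. FGF19 and FGF8 led in the scramble library, with 40.9% and 36.0%, and held 4.84% and 7.31% in the knockdown library. These 2 shares depend on the scaling: in reads not divided by length, FGF19 held 55.5% and 7.57% and FGF8 held 21.4% and 5.02% (scramble, knockdown), so their order in the knockdown library turned. FGF4 went from 11.5% to 6.13% of the sum although its own level was 15.6 times as high. Without FGF17 the sum was 13.1 and 74.7 FPKM, 5.69-fold higher. Both sums hold FGF4, picked for its levels, and only ligands past the authors' 2-fold limit. Nothing is therefore read from their size about FGF ligands as a family. Within the FGF8 subfamily the order of the pair was opposite in the libraries, with FGF8 10.8 times the level of FGF17 in the scramble library and FGF17 11.1 times that of FGF8 in the knockdown library.

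**Figure D2:**
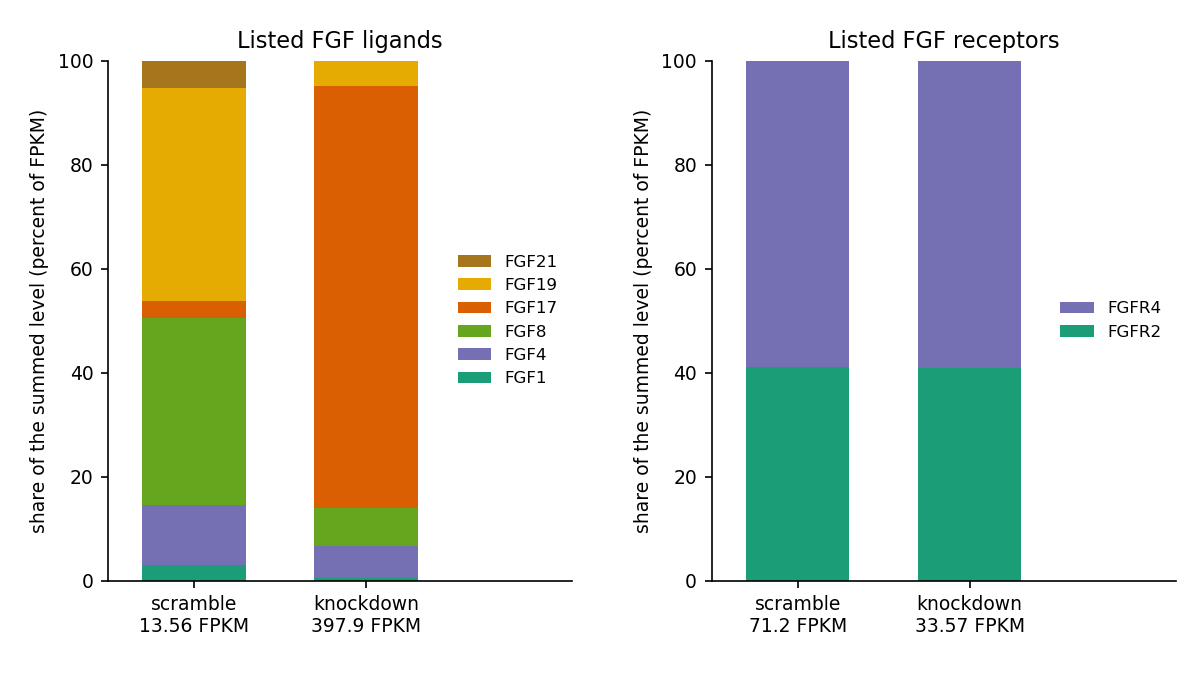
Bars give each gene's share of the summed level, in percent of FPKM, over the listed FGF ligands (left) and the listed FGF receptors (right) in each library, with the sum in FPKM under each bar. FGF17 goes from 3.32% to 81.2% of the ligand sum, while FGFR4 holds 58.9% and 59.2% of a receptor sum that is 2.12-fold lower in the knockdown library.

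Of 5 receptor genes looked up, FGFR2 and FGFR4 had a row, and both were lower in the knockdown library, as was the ligand FGF21. FGFR2, a receptor of which splicing makes epithelial and mesenchymal forms, had 29.2 FPKM in scramble cells and 13.7 FPKM in the knockdown library. The reads that fit its deposited p-value numbered 2976 and 1272, 2.26-fold lower (interval 2.12 to 2.42). FGFR4, which responds to FGF19 with the co-receptor KLB, had 42.0 FPKM (2998 reads) and 19.9 FPKM (1373 reads). It was 2.11-fold lower (interval 1.98 to 2.25), and its interval holds 2-fold. Both receptors had higher scramble levels than any of the 6 listed ligands, the 90th (FGFR2) and 57th (FGFR4) highest levels of the listed genes in the scramble library. Among the 921 lower genes their log2 ratios of -1.09 and -1.07 ranked 749th and 774th from the lowest, near the authors' 2-fold limit.

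FGFR2 and FGFR4 kept nearly the same proportion to each other. FGFR4 had 1.44 times the level of FGFR2 in the scramble library and 1.45 times in the knockdown library. The knockdown over scramble ratio of FGFR2 was 0.987 of that of FGFR4 by level and 0.933 of it by inferred reads. Their summed level was 71.2 and 33.6 FPKM, 2.12-fold lower in the knockdown library. Set against this receptor sum, the listed ligand sum was 0.190 of it in the scramble library and 11.9 times it in the knockdown library. Both sums hold genes picked for their levels and only genes past the 2-fold limit, so nothing is read from this comparison. FGFR1, FGFR3 and the kinase-less FGFRL1 had no row, nor had 16 ligand genes, so neither sum is the whole receptor or ligand level.

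For FGFR2 the reads and the levels differed slightly. Its read ratio differed from its level ratio by -5.51%, and 37 of 576 genes (6.42%) with reads inferred as 1 pair and 2 FPKM or more in both libraries differed by at least as much, against a median of 0.38%. The pair for FGFR2 was found only when levels were allowed to be off by up to 12%. With reads taken from the levels alone FGFR2 was 2.14-fold lower. The table gives 1 level per gene, so the splice forms of FGFR2 were not analysed here.

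The 250 bases before the start of FGFR2 and of FGFR4 are shown, from RefSeq on GRCh38.p14. This is a later build than the hg19 named in the submitters' processing notes. Capitals mark GC boxes (GGGCGG on either strand, the motif bound by SP1-type factors). FGFR2 is at chr10:121598445-121598694 on the minus strand and FGFR4 at chr5:177086665-177086914 on the plus strand.
FGFR2: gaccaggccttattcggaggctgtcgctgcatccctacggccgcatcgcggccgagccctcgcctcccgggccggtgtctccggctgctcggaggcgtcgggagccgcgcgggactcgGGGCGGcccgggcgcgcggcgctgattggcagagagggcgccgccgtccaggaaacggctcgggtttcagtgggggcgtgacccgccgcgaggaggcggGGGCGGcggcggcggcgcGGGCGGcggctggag
FGFR4: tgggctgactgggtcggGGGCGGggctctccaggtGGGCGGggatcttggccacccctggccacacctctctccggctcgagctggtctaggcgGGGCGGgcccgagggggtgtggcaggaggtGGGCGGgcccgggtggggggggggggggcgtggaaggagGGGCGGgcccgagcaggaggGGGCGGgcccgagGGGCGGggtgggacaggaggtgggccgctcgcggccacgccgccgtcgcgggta
Both stretches are rich in G and C, at 78.4% for FGFR2 and 79.6% for FGFR4, against a median of 58.0% over 27305 promoters of the same length. FGFR2 holds 3 GC boxes and FGFR4 holds 7, a motif present in 42.3% of these promoters. Neither stretch holds on either strand the paired half-site of TFCP2L1 (CCAG, 6 bases of any kind, CCAG), found in 3.33% of promoters, nor TATAAA (11.1%), nor the ETS core CCGGAAG (8.82%). A missing match says only that these letters are not in this window, and the data do not measure binding. The promoter search left out the chromosome that holds FGF17 and DUSP4, and FGF4 had no promoter entry. FGF17, FGF4 and DUSP4 are therefore shown by name only.

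DUSP4, a phosphatase of the nucleus that acts on ERK and other MAP kinases and is induced by ERK signalling, was higher in the knockdown library. It had 1.00 FPKM (129 reads) in the scramble library and 5.16 FPKM (644 reads) in the knockdown library. The ratio was 5.16 (interval 4.27 to 6.29) and the log2 ratio 2.26, the 231st highest of the listed genes. Of the 10 classical MAP kinase phosphatases, 5 had a row, and 4 were higher and 1 lower. Of all genes tested 10.8% had a row, and 54.1% of the listed genes were higher. The median of the 5 phosphatases, DUSP4 among them, was 1.09 on the log2 scale, beside 1.01 over all listed genes. DUSP4 had the highest ratio of the 5 phosphatases. It was picked for its levels, so nothing is read from that rank or that median.

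DUSP5, a nuclear phosphatase specific to ERK, had 7.45 and 20.4 FPKM, a ratio of 2.74 (interval 2.45 to 3.07). DUSP6, the cytoplasmic ERK phosphatase and a common readout of FGF signalling, had 7.85 and 16.7 FPKM, a ratio of 2.13 (interval 1.93 to 2.35). DUSP6 is uncertain, because 40.5% of its exonic bases overlap the opposite-strand gene AC024909.2 and the strand setting of the counting is not given in the sources used here. DUSP8, which acts mainly on the stress-activated kinases JNK and p38, had 3.19 and 6.91 FPKM. So DUSP4 started from the lowest level of the 4 higher phosphatases and remained below DUSP5, DUSP6 and DUSP8 in the knockdown library. DUSP9, an ERK phosphatase, was the one listed as lower, at 1.86 and 0.45 FPKM (104 and 24 reads), 4.19-fold lower (interval 2.67 to 6.83).

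**Figure D3:**
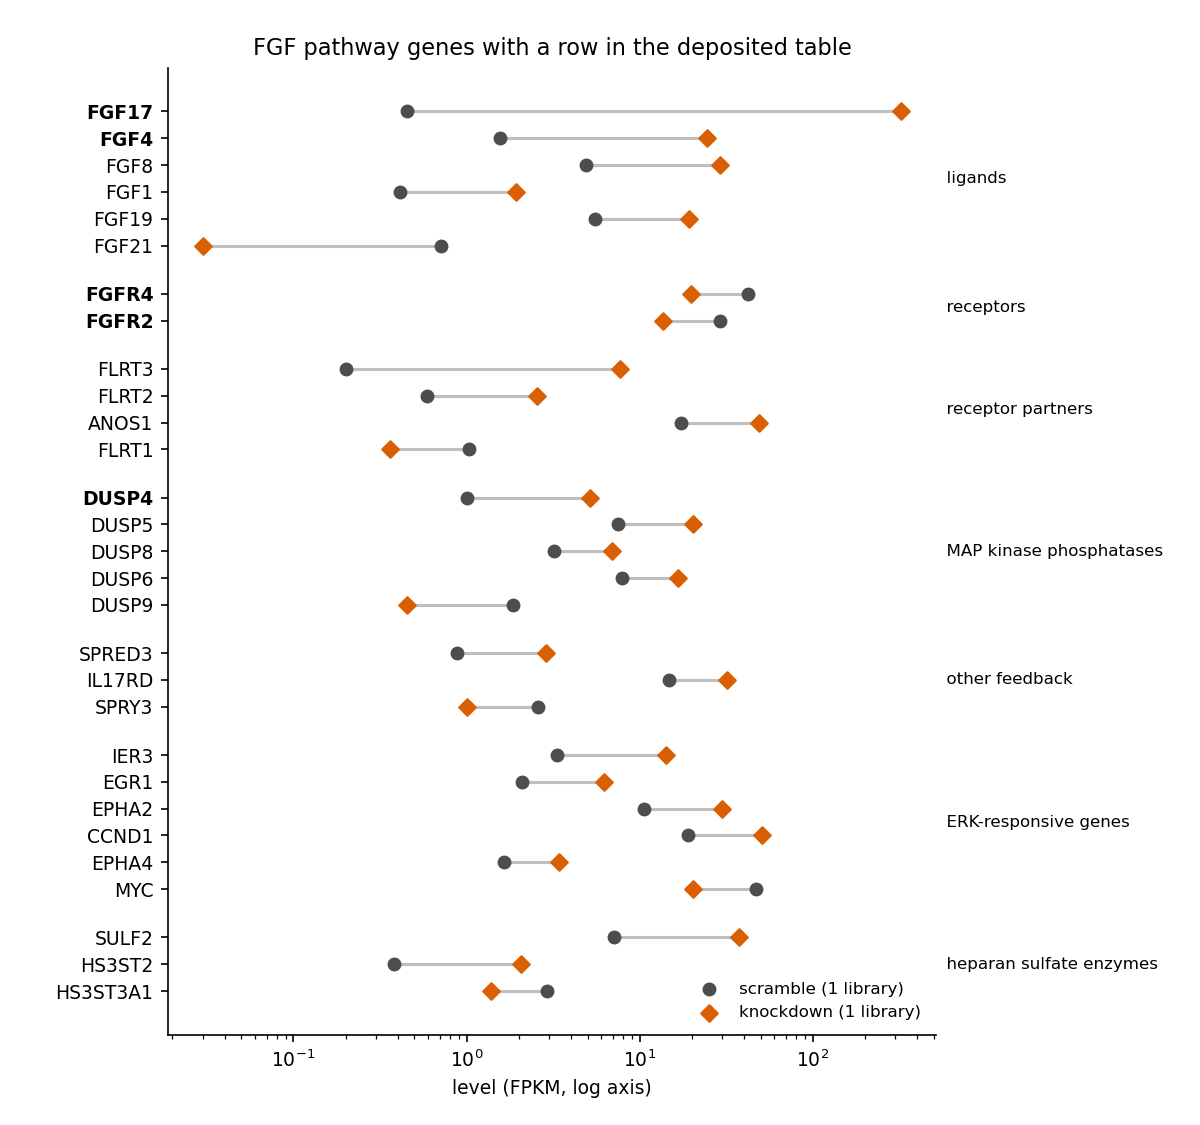
Each line joins the level of 1 gene in the scramble library (circle) and in the knockdown library (diamond), in FPKM on a log axis, for the 29 genes of the FGF lists with a row, grouped by role with the 5 described genes in bold. Ligands other than FGF21 lie to the right in the knockdown library, FGFR2 and FGFR4 to the left, and DUSP4 (1.00 to 5.16 FPKM) has the longest line of the higher phosphatases.

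Other brakes on the pathway were listed in both directions. Of 11 such genes 3 had a row, 2 higher and 1 lower. IL17RD, a membrane inhibitor of FGF receptors also known as SEF, had 14.8 and 31.9 FPKM, a ratio of 2.15 (interval 2.06 to 2.25). SPRED3, an inhibitor of RAS to RAF signalling, had 0.88 and 2.87 FPKM, a ratio of 3.27 (interval 2.62 to 4.13). SPRY3, a Sprouty inhibitor, was lower at 2.60 and 1.00 FPKM. SPRY1, SPRY2 and SPRY4, the Sprouty genes most often used as readouts of FGF signalling, had no row.

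Of 9 genes for proteins that assist the ligands and receptors at the cell surface, 4 had a row, 3 higher and 1 lower. FLRT3, a membrane protein that binds FGF receptors, had 0.20 and 7.73 FPKM (18 and 706 reads), a ratio of 40.6 (interval 25.5 to 68.8). Its relative FLRT2 had 0.59 and 2.56 FPKM, and ANOS1, a secreted protein that modulates FGFR1, had 17.3 and 48.8 FPKM. FLRT1 was lower at 1.03 and 0.36 FPKM and is uncertain, since 23.3% of its words are shared. Of 14 heparan sulfate enzymes 3 had a row: SULF2, which removes sulfate groups that some FGFs need for binding, had 7.07 and 37.5 FPKM, HS3ST2 had 0.38 and 2.06 FPKM, and HS3ST3A1 was lower at 2.91 and 1.39 FPKM and is uncertain, since 23.4% of its words are shared with HS3ST3B1 and other genes.

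Downstream, none of 24 genes of the RAS to ERK cascade had a row. Of 22 genes that respond to ERK, 5 were listed as higher and 1 as lower, and the median of these 6 was 1.44 on the log2 scale. Of all genes tested 10.8% were listed, and 54.1% of those were higher. The median was 1.01 over all listed genes and 1.5 over the higher ones alone. The immediate early gene EGR1 had 2.10 and 6.20 FPKM, a ratio of 2.97 (interval 2.46 to 3.59). IER3 had 3.35 and 14.2 FPKM and is uncertain, since 26.5% of its exonic bases overlap an antisense gene. CCND1, the cyclin that carries growth signals to the cell cycle, had 19.0 and 50.7 FPKM, and the ephrin receptors EPHA2 (10.6 and 29.7 FPKM) and EPHA4 (1.65 and 3.43 FPKM) were higher too. MYC was the lower one, at 47.2 and 20.4 FPKM. The ETS factors ETV1, ETV4 and ETV5, direct readouts of FGF signalling, had no row.

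Over all the lists, 29 of 117 genes had a row (24.8%), 21 higher and 8 lower, and without the 5 described genes 24 of 112 (21.4%), 18 higher and 6 lower. The share of all genes tested that the table lists was 10.8%. The median log2 ratio of the 24 was 1.46, beside 1.01 over all listed genes, of which 54.1% were higher. These lists were drawn up with earlier results of these data known, and some of their genes may not have been tested by the authors.

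**Figure D4:**
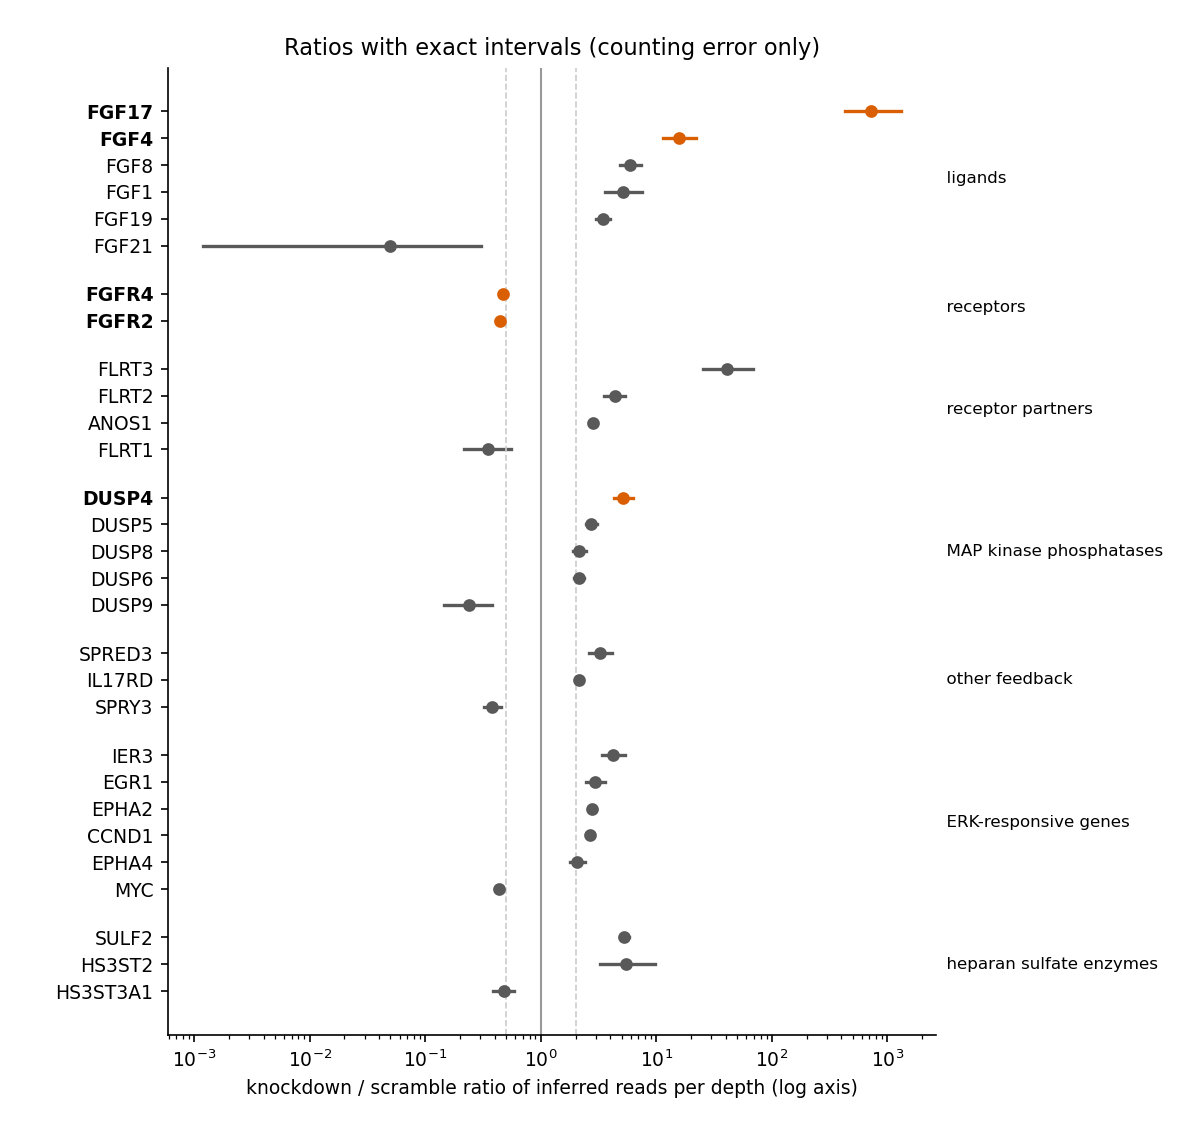
Points give the knockdown over scramble ratio of inferred reads per depth on a log axis, with exact 95% intervals that cover counting error only, for the same 29 genes, FGF17, FGF4, FGFR2, FGFR4 and DUSP4 in orange. The solid line marks a ratio of 1 and the dashed lines 2-fold; FGF17 (719) and FLRT3 (40.6) lie farthest to the right, and FGF21, on 1 knockdown read, has the widest interval.

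Markers of cell types were listed in both directions. All 8 definitive endoderm markers looked up had a row and were higher, with a summed level of 9.12 FPKM in scramble cells and 959 FPKM in the knockdown library, led by CER1 (6.11 and 799 FPKM) and FOXA2 (0.05 and 56.5 FPKM). Of 10 primitive streak markers 8 had a row, 7 higher and 1 (MESP2) lower, with a sum of 32.4 and 549 FPKM, led by MIXL1 (2.70 and 267 FPKM). SOX17 was listed at the floor of 0.01 FPKM in the scramble library, where its reads were set to 0, and at 26.6 FPKM in the knockdown library. Of 10 markers of undifferentiated stem cells 4 had a row, all lower, with a sum of 534 and 198 FPKM, led by PODXL and SOX2, while POU5F1 and NANOG had no row, so the label could be checked only in part. Of 7 fibroblast markers 1 had a row, COL1A1, a collagen chain, at 110.2 and 24.4 FPKM. It was 4.52-fold lower (interval 4.35 to 4.69), with reads estimated from its levels. Of 7 trophectoderm markers 1 had a row, TFAP2C, at 14.8 and 6.95 FPKM and so lower, like FGFR2 and FGFR4. Of 6 neuroectoderm markers 1 had a row, SIX3, listed at the floor of 0.01 FPKM in the scramble library and at 0.38 FPKM in the knockdown library. The part of a different mix of cells in the FGF ligand, receptor and DUSP4 values was not tested.

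By position, FGF4 lies beside FGF19 in the RefSeq gene order, with FGF3 on its other side and ANO1 next. FGF4, FGF19 and the chloride channel gene ANO1 (0.47 and 1.00 FPKM, ratio 2.17, interval 1.54 to 3.08) were all higher, and FGF3 had no row. FGF17 lies between NPM2 and DMTN. NPM2, a histone chaperone of the oocyte, had 0.40 and 2.56 FPKM. Its 11 and 81 reads were found only when levels were allowed to be off by up to 12%. DMTN, an actin-bundling protein, had 0.77 and 8.66 FPKM, a ratio of 11.5 (interval 8.48 to 15.99). No gene within 3 protein-coding neighbours on either side of FGFR2, FGFR4 or DUSP4 had a row. Of the 30 neighbours of the 5 genes in all, 4 had a row (13.3%), all higher, a share close to the 10.8% listed among all genes tested.

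Over just 2 libraries, likeness to another gene means only a similar pair of levels, measured here as the distance of log2(FPKM + 0.1). FGF17 was farther from its nearest genes than the other 4 genes were from theirs, and those nearest were the BMP inhibitor CHRD (0.54 and 79.4 FPKM, distance 2.04) and the streak factor EOMES (0.25 and 76.0 FPKM, distance 2.19). FGF4 was nearest to CD177 (1.57 and 18.1 FPKM, 28.6% of whose words another gene holds) and to CXCR4, a receptor on definitive endoderm (1.13 and 27.3 FPKM). Among the 2 genes nearest to FGFR4 was METAP1 (39.9 and 19.4 FPKM). FGFR2 was nearest to TMEM59L (28.7 and 14.3 FPKM) and FAM72A, the last sharing 94.4% of its words with other genes. DUSP4 was nearest to DACT2 (1.05 and 5.45 FPKM) and to PCDHGC4, with 46.9% of its words in other genes, mostly of its own cluster.

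In the annotation the authors deposited beside each gene, FGF17, FGF4, FGFR4 and DUSP4 share the term for transmembrane receptor protein tyrosine kinase signalling. It was attached to 46 listed genes, 32 higher and 14 lower (69.6% higher, against 54.1% of all listed genes), and their median was 1.22 on the log2 scale. FGFR2 and FGFR4 share the narrower term for FGF receptor signalling with 8 more listed genes, and of these 10 genes 5 were higher and 5 lower.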

How the data were processed

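Libraries from 1 ug of Trizol-extracted RNA were run on the BGISEQ-500 platform, per the labels' protocols, which also name Illumina library methods. The submitters' processing notes name Bowtie 0.12.2 and the build hg19. No source used here gives the read counter, the test, the strand setting or the filters.

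Each group had 1 library. The authors deposited 1 table that gives, per gene, its length, both levels, their log2 ratio, and a p-value with its false discovery rate. The header calls the deposited levels expression, and they were read as FPKM. The search for reads assumed levels scaled by length and depth, so the inferred reads are no separate check on the unit. The values do not separate FPKM from RPKM. The deposited log2 ratio is that of knockdown to scramble FPKM. The largest deposited false discovery rate, computed from the authors' p-values, is 0.00099 and every log2 ratio is at least 1 in size.

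Reads were inferred with Python 3.11.15 and scipy 1.17.1. Genes at the floor of 0.01 FPKM in the scramble library gave the depth ratio (1.034, scramble over knockdown), and 67 of 75 fitted whole steps within 0.005 of a read. For each gene a pair of whole reads was sought whose Poisson p (Audic and Claverie, doubled smaller tail) equals the deposited p-value within 6e-06 on the natural log, plus 2e-08 per read. The levels were allowed to be off by 3%, or else 12%. Exactly 1 pair was found for 1821 (94.5%) of the 1926 genes whose p-value is above 0, 137 of them only in the wider window. FGF17, ANOS1, SULF2 and CCND1 have a p-value printed as 0, so their reads were estimated from the level and the length less 63.2 bases. No pair was found for the markers COL1A1, FOXA2 and SOX17 either, and their reads were estimated in the same way. A level at the floor was set to 0 reads in such genes. The search was tested on simulated data.

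Conditions were not tested, having 1 library each. Log2 ratios use a pseudocount of 0.1 FPKM, which understates those of low genes. Named genes are the 5 described, every FGF list gene with a row, TFCP2L1, the 2 nearest genes of each and leading lineage markers. A gene that this rule takes is not reported here. SOX17 and the genes beside FGF17 and FGF4 were named after their values were seen. The 5 genes and the lists were chosen with earlier results of these data known. Shared sequence was measured as 31-base words of the longest coding transcript in GENCODE 29 that occur in another gene, and a gene above 20% is called uncertain.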

Additional observations from a re-analysis of the deposited data

How the results depend on the processing

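No direction of FGF17, FGF4, FGFR2, FGFR4 or DUSP4 changed under the alternatives, and 26 of 30 alternative log2 ratios stayed within the half-width of the counting interval. With a pseudocount of 1 FPKM the log2 ratios of FGF17, FGF4 and DUSP4 were 7.80, 3.31 and 1.62. At equal depth that of FGFR2 was -1.23. At 4-fold the counts of higher genes were 3 ligands, 1 cofactor, 1 phosphatase, 0 other feedback genes and 1 ERK-responsive gene, and those of lower genes were 0 for receptors, cofactors, phosphatases, other feedback, ERK-responsive and heparan sulfate genes. At 5 FPKM or more, 1 other feedback gene and 1 heparan sulfate gene were higher, and 0 cofactors, phosphatases, other feedback genes or heparan sulfate genes were lower. With a pseudocount of 1 FPKM, 0 genes of these same 4 lists were lower, and 364 of all listed genes in place of 710. Without a filter on low levels 1 ligand, FGF21, was lower in place of 0. Leaving out genes of shared sequence, chosen after seeing the data, left 0 lower cofactors and 0 lower heparan sulfate genes. In reads not divided by length FGF4 held 8.57% and 5.29% of the ligand sum (scramble, knockdown), FGFR2 49.8% and 48.1% of the receptor sum, and FGFR4 50.2% and 51.9%. The same scaling, added for these after seeing the data, gave FGF8 21.4% and 5.02% and FGF19 55.5% and 7.57% of the ligand sum. No paired analysis was possible because each group has 1 library. With 1 library per group the spread between cultures is unknown, and depth limits FGF17 to an estimated 14 scramble reads and FGF21 to 1 knockdown read.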
